A study of Mus musculus with 9 samples.

Results

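Glycolysis breaks glucose down to pyruvate, and gluconeogenesis, which the kidney shares with the liver, makes glucose from lactate, glutamine and other precursors. Most enzymes in between serve both directions, and each direction has its own one-way steps: hexokinase, phosphofructokinase and pyruvate kinase for glycolysis, and pyruvate carboxylase, PEP carboxykinase, fructose bisphosphatase and the glucose phosphatase system for gluconeogenesis. In the nephron the proximal tubule makes glucose and burns little of it, while the later segments rely more on glycolysis. The polyol pathway turns glucose into sorbitol and then fructose, and ketohexokinase passes fructose on.

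The genes described here are 33 genes of these pathways, among 22180 genes named on the array. They were listed by pathway, with earlier results of these data known. A probe set carrying a single gene symbol was found for 27 of them, and all 27 lay above the filter on dim genes. Aldoa was on a probe set named for several genes, and no named probe set was found for Gpi1, Eno1, Pfkfb1, Sord and Akr1b3, so these 6 were not analysed here. Sord and Akr1b3 encode the enzymes of the polyol pathway itself, so Khk was the only gene left of that arm.

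Kidney cortex RNA came from male mice on the C57BLKS/J strain at 20 weeks of age, with 3 arrays per group that the labels call biological replicates. The lean db/m controls are heterozygous for the leptin receptor mutation, and db/db mice, which are homozygous for it in every tissue, become obese and diabetic. Daily for 12 weeks, 9 db/db mice received 2.4 g/kg of Tang-shen Formula (TSF), a herbal medicine, into the stomach, and 9 others received saline. The labels do not say what the db/m mice received, nor whether an array holds 1 mouse or a pool.

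Levels are log2(intensity + 1), where intensity is the authors' deposited value of a probe set. A difference is one between group means on that scale, which understates the change of dim genes. Adjusted p-values come from limma over 17740 genes with Benjamini-Hochberg adjustment, and the threshold was 0.05. Proximal tubule markers were bright in every array: of 12 listed, 11 had a probe set and all 11 lay above the filter, and their summed intensity ranged over 25460 to 27500 for db/m, 25040 to 26360 for db/db and 25480 to 26030 for db/db+TSF. The proximal tubule marker Slc7a13, an amino acid transporter, did not share this evenness: its mean was 10.74 for db/m, 9.36 for db/db and 8.03 for db/db+TSF, with 6.27 in db/db+TSF replicate 2, and it fell by 2.70 with TSF against db/m (limma adjusted p = 0.0327). The even sum also joins markers that differed in opposite directions. Slc22a6 lay below all db/m arrays in db/db (-0.28) and with TSF (-0.34), without passing. Slc5a2 lay above them (0.26 and 0.37), also without passing. With limma, 1 of the 11 was higher and 2 lower at an unadjusted p under 0.05 in db/db against db/m. With TSF against db/m these counts were 2 and 2. The array labelled db/db replicate 3 stood apart in neutrophil markers, whose summed intensity was 456.7 there and between 38.95 and 45.55 in the other arrays. Values for Pklr, Pkm, Pfkl, Pfkp, Aldoc and Fbp2 and the counts over members are also given without this array. A control array, db/m replicate 2, stood apart in adipocyte markers. The median of these 6 markers lay 0.553 above the db/m mean there and between -0.513 and -0.202 in the other arrays. Their summed intensity was 884.3 there, though it was higher still, 945.0, in db/db replicate 3. With limma 0 of the 6 passed in any comparison, and their part in the enzyme values was not tested.

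Pyruvate kinase of the liver and red cell type, Pklr, was the only member past the threshold, and RefSeq lists separate promoters for it. The 250 bases before each start are shown because each holds a short element of a kind known for its tissue. The upstream promoter, known for red cells, lies at chr3:89135892-89136141, and the downstream one, known for liver and kidney, at chr3:89136373-89136622, both on the plus strand of GRCm38.p6. The promoter of Pck1, the cytosolic PEP carboxykinase and a classical target of cAMP, at chr2:173152823-173153072 on the plus strand, is set beside them for the gluconeogenic arm. Capitals mark the 7 bases in capitals of cAGATAAGa (a GATA element), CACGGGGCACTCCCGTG (paired E-box ends as in the carbohydrate response element, searched by its first and last 4 bases with the 9 between them free), GTTATACTTTAAC (the HNF1 palindrome, searched with the 4 bases after its first 4 free) and TTACGTCA (a cAMP response element). Each was searched on both strands, and they were chosen after the sequences were seen. Sequences are given 5′ to 3′ from RefSeq.
Pklr upstream promoter: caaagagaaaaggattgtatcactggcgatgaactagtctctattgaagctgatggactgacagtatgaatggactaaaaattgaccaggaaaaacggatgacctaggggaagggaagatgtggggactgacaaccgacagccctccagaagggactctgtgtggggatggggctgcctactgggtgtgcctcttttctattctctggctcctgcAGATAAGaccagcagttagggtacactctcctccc
Pklr downstream promoter: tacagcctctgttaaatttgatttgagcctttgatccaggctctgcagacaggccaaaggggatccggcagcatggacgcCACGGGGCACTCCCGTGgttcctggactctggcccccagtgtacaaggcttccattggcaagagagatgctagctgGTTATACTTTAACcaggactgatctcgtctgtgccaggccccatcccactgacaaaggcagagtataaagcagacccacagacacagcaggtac
Pck1 promoter: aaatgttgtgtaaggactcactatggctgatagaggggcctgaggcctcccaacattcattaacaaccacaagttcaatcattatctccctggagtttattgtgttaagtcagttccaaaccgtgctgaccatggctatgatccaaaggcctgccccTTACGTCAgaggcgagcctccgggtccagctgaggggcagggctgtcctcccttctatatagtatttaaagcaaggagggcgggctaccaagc

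In the downstream Pklr promoter the paired E-box ends lay 170 to 154 bases before the start and the HNF1 match 94 to 82 bases before it. Among 32851 RefSeq promoters of this kind, 0.219% held such ends and 0.17% the HNF1 palindrome. The GATA match of the upstream promoter lay 35 to 29 bases before the start, and 2.74% of promoters held that element. The cAMP element of Pck1 lay 93 to 86 bases before the start, and 0.447% of promoters held it. Of the 41 promoters of the 27 genes measured, 1 held each of these elements, the one printed above. The full cAMP element TGACGTCA (1.55% of promoters) and a forkhead element (3.17%) were searched as well and found in 1 member promoter each, those of Ldha and Aldoc. A match is a run of letters and no measurement of binding, and the probe set of Pklr does not tell its promoters apart.

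Set against the lean mice, saline-treated db/db mice, obese as well as diabetic, show how the RNA levels of these enzymes differed between the genotypes. Pklr rose 1.61-fold, and no other member passed the threshold. The remaining one-way enzymes of glycolysis, other than Hk2, were higher by 1.21-fold to 1.45-fold without passing, and those of gluconeogenesis by 1.05-fold to 1.24-fold. Of the 27 members 1 passed on the higher side, where 0.592% of all genes did, and 0 on the lower side, where 0.462% did. The members' median difference was 0.13, beside 0.01 over all genes, and 26 of 27 lay above 0, as did 52.2% of all genes.

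**Figure D1:**
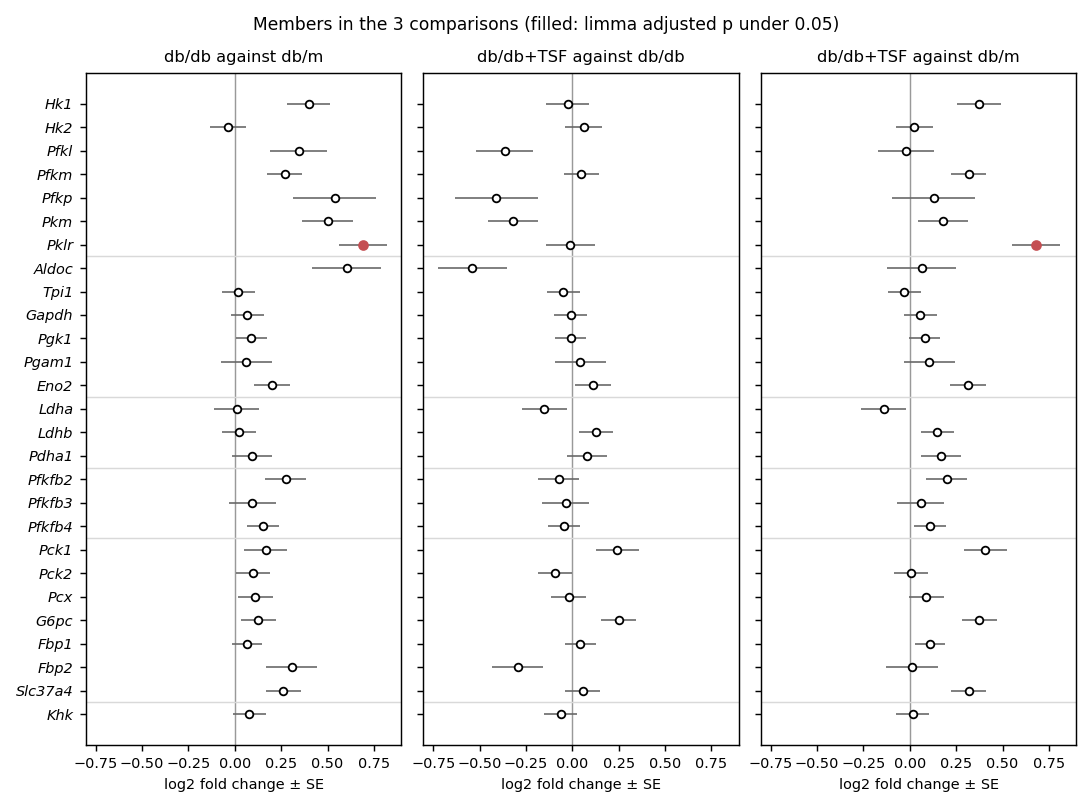
Log2 fold change with its standard error (x axis) of the 27 members (y axis, grouped by role between grey lines) in the 3 comparisons; filled points passed an adjusted p of 0.05. Pklr is the only filled point, at 0.69 for db/db and 0.68 for db/db+TSF, each against db/m, and Aldoc, Pfkp, Pfkl and Pkm lie right of 0 in the first panel and left of 0 in the middle one.

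Pklr catalyses the last step of glycolysis. Its level was 7.54, 7.50 and 7.79 in the db/m arrays, 8.25, 8.24 and 8.41 in the db/db arrays and 8.57, 8.21 and 8.10 with TSF. Every array of both db/db groups lay above every db/m array, and the db/db groups overlapped each other. The difference of db/db from db/m was 0.69 (SE 0.13, limma adjusted p = 0.0339), and that of db/db+TSF from the same db/m arrays was 0.68 (SE 0.13, limma adjusted p = 0.0201). Between the db/db groups it was -0.01 (SE 0.13, limma adjusted p = 0.984).

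The size of the Pklr difference held when single arrays were left out, from 0.63 to 0.78 for db/db and from 0.54 to 0.78 for db/db+TSF, while the call did not. For db/db the limma adjusted p was 0.108 or 0.0977 when lean replicate 1 or 2 was dropped, and 0.0988, 0.0744 or 0.119 when saline replicate 1, 2 or 3 was. For db/db+TSF it was 0.0752 or 0.0646 when lean replicate 1 or 2 was dropped, and 0.0518 when TSF replicate 2 was.

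Pklr is also a red cell gene, so red cell markers stand beside it. Of 8 listed, 3 had a probe set (Epb42, Klf1 and Slc4a1, the last also a collecting duct marker), and 0 passed with limma in any comparison. Only Slc4a1 reached an unadjusted p under 0.05 with limma, in db/db against db/m. Their summed intensity ranged over 140.9 to 170.8 for db/m, 169.1 to 238.3 for db/db and 153.1 to 171.7 for db/db+TSF, and none was at 0. Slc4a1 was the brightest of the 3 and so weighed most in the sum, with means of 6.75 for db/m, 7.19 for db/db and 6.93 for db/db+TSF. In the same order the means were 5.36, 5.52 and 5.27 for Klf1 and 3.00, 2.96 and 2.99 for Epb42. The part of red cells in the level of Pklr was not tested.

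Hexokinase traps glucose in the cell as glucose phosphate. Hk1 measured 6.94, 6.82 and 6.77 in the db/m arrays, 7.21, 7.10 and 7.41 in the db/db arrays and 7.40, 7.04 and 7.21 with TSF. Both db/db groups lay above the db/m arrays, by 0.40 (SE 0.12, adjusted p = 0.146) and 0.37 (adjusted p = 0.12) with TSF, neither past the threshold. Hk2, the insulin-responsive isoform, was dim and lay between 3.87 and 4.16, with overlapping groups.

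Phosphofructokinase commits sugar to glycolysis. The muscle-type gene Pfkm measured 7.51, 7.74 and 7.56 in the db/m arrays, 7.86, 7.97 and 7.79 in the db/db arrays and 7.88, 7.91 and 7.98 with TSF. Like Hk1 it lay above all db/m arrays in both db/db groups, by 0.27 (adjusted p = 0.229) and 0.32 (adjusted p = 0.106) with TSF. The liver-type and platelet-type genes had another order.

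The liver-type gene Pfkl measured 7.46, 7.36 and 7.56 in the db/m arrays, 7.65, 7.58 and 8.19 in the db/db arrays and 7.60, 7.30 and 7.42 with TSF. The platelet-type gene Pfkp measured 7.03, 6.80 and 6.79 in the db/m arrays, 7.18, 7.22 and 7.83 in the db/db arrays and 7.40, 6.49 and 7.10 with TSF. Both were highest in db/db replicate 3, and for both the TSF arrays overlapped each other group. In db/db the differences from db/m were 0.34 (adjusted p = 0.347) and 0.54 (adjusted p = 0.314), and without db/db replicate 3 they were 0.15 and 0.33. The differences of db/db+TSF from db/db were -0.37 (adjusted p = 0.402) and -0.41 (adjusted p = 0.493), and -0.17 and -0.20 without that array.

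Pkm, the pyruvate kinase of most other cells, measured 9.03, 9.04 and 9.18 in the db/m arrays, 9.46, 9.37 and 9.92 in the db/db arrays and 9.37, 9.18 and 9.25 with TSF. The db/db arrays lay above both other groups, with a difference of 0.50 from db/m (SE 0.14, adjusted p = 0.119), and that of db/db+TSF from db/db was -0.32 (SE 0.14, adjusted p = 0.403). The lowest db/db array and the highest TSF array were equal to 2 decimals. Without db/db replicate 3 the differences were 0.33 and -0.15.

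Aldoc, the brain-type aldolase, which cleaves fructose bisphosphate, had the same order of means as Pkm. It measured 7.10, 6.83 and 6.80 in the db/m arrays, 7.43, 7.15 and 7.96 in the db/db arrays and 7.15, 6.74 and 7.03 with TSF. The db/db arrays lay above the db/m arrays and overlapped those given TSF. The difference of db/db from db/m was 0.60 (SE 0.19, adjusted p = 0.171) and that of db/db+TSF from db/db was -0.54 (SE 0.19, adjusted p = 0.324). Without db/db replicate 3 these were 0.38 and -0.32.

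**Figure D2:**
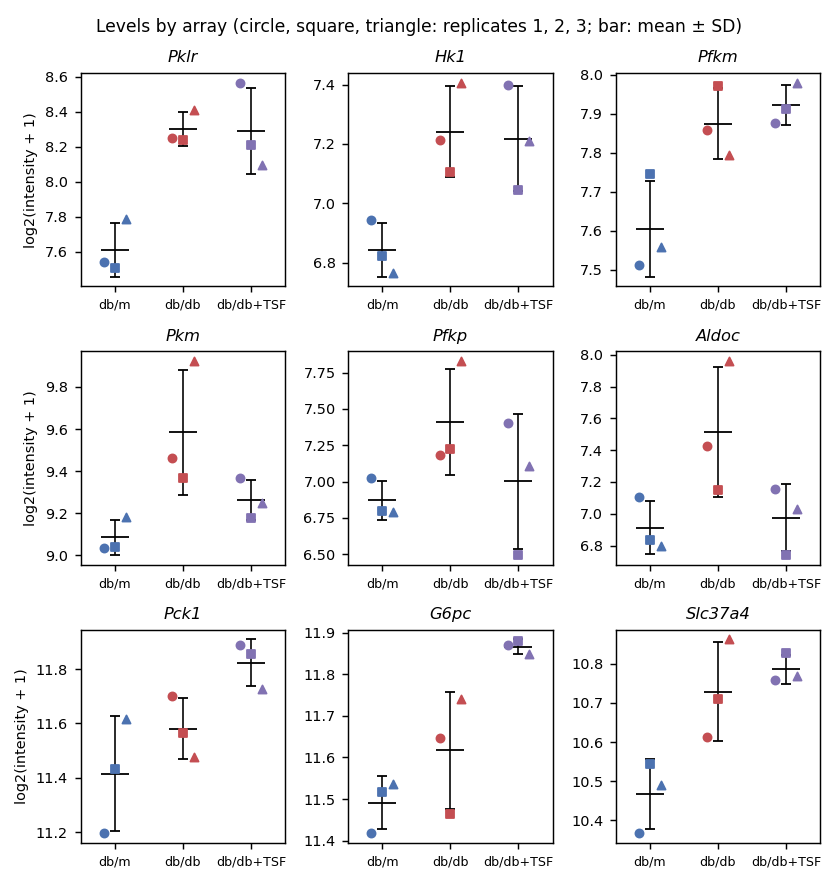
Level of 9 members as log2(intensity + 1) (y axes, each with its own range) in the 3 groups (x axis), with 1 point per array and the mean ± SD as bars. Pklr, Hk1 and Pfkm sit higher in both db/db groups, Pkm, Pfkp and Aldoc peak in db/db replicate 3 at 9.92, 7.83 and 7.96, and the TSF arrays of G6pc lie above all others.

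Summed levels of later nephron markers were higher than in db/m in both db/db groups, though not for every marker. Of 9 collecting duct markers, 9 lay above 0 in db/db against db/m and 0 passed with limma (4 at an unadjusted p under 0.05), and their summed intensity ranged over 2173 to 2517 for db/m, 2706 to 3063 for db/db and 2521 to 2956 for db/db+TSF. The highest sum was that of db/db replicate 3. With TSF against db/m 6 of the 9 lay above 0, and Aqp2, Aqp3 and Avpr2 lay below. Of 9 markers of the loop and distal tubule, 9 lay above 0 in db/db against db/m and Calb1 passed, with sums of 8778 to 9473, 10490 to 11430 and 10270 to 11550 in the same order of groups. With TSF against db/m 7 of these lay above 0 with a median of 0.05, and Calb1 (1.04) and Pvalb (0.54) passed.

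Markers of other cells differed between the groups too. All 5 lymphocyte markers measured lay below 0 in db/db against db/m and Cd3e passed, and with TSF against db/m Cd3e and Cd3g passed, also lower. The T cell markers Cd3e, Cd3g and Cd8a lay below all db/m arrays in both db/db groups. The B cell markers Cd79a and Ms4a1 were dim and nearly level. Their means were 3.35 and 2.78 for db/m, 3.32 and 2.70 for db/db and 3.28 and 2.68 with TSF. Of 6 macrophage markers 6 lay below 0 in db/db with 0 past the threshold (4 at an unadjusted p under 0.05), and with TSF Adgre1, Csf1r and Cd68 passed, all lower. Their summed intensity was 437.1 to 480.4 for db/m, 367.7 to 377.6 for db/db and 320.5 to 373.3 for db/db+TSF, and that of the lymphocyte markers was 78.16 to 93.31, 51.41 to 61.71 and 54.0 to 61.9. Podocyte markers summed to 677.0 to 770.0, 794.5 to 853.2 and 853.4 to 922.3, with 0 of 5 past the threshold and 3 at an unadjusted p under 0.05 in each comparison with db/m. Podxl was the brightest of them and so weighed most in the sum. Nphs1 and Ptpro were also above all db/m arrays in both db/db groups, while Wt1 and Synpo were nearly level. In the same order of groups their means were 5.92, 5.96 and 5.96 for Wt1 and 5.11, 5.15 and 5.17 for Synpo. Smooth muscle and pericyte markers summed to 1226 to 1323, 1556 to 1599 and 1388 to 1488, with Rgs5 past the threshold and higher in both comparisons with db/m. Of these 6 markers, 5 lay above 0 in db/db against db/m and 4 with TSF against db/m. With TSF, Pdgfrb and Acta2 lay below 0. Pdgfrb was below all db/m arrays there (-0.249) without passing, while Acta2 overlapped db/m. No marker was at 0, and the part of any of these cells, or of those behind the neutrophil markers, in the enzyme values was not tested. In a bulk sample, fewer cells of a type and less RNA per cell cannot be told apart.

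The other enzymes that serve both directions differed little. Gapdh lay between 11.80 and 12.03 and Tpi1 between 11.14 and 11.35, both with overlapping groups. Pgam1 lay between 8.70 and 9.20, again with overlap, and near-identical copies of Gapdh and Pgam1 in the genome make their probe sets less certain. Pgk1 measured 10.84, 10.85 and 10.90 in the db/m arrays, 10.95, 10.86 and 11.05 in the db/db arrays and 10.97, 10.91 and 10.95 with TSF. Only the TSF arrays were wholly above db/m, by 0.08 (adjusted p = 0.684).

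Eno2, the neuronal enolase, was dim. It measured 3.66, 3.61 and 3.42 in the db/m arrays, 3.68, 3.78 and 3.83 in the db/db arrays and 3.93, 3.91 and 3.79 with TSF. Both db/db groups lay above db/m without overlap, by 0.20 (adjusted p = 0.386) and 0.31 (adjusted p = 0.117) with TSF.

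Among genes that decide where pyruvate goes, 0 of 3 passed with limma in any comparison, and 0 reached an unadjusted p under 0.05. Ldha, of the lactate dehydrogenase subunit that favours making lactate, lay between 5.16 and 5.60 with overlapping groups. Ldhb, of the subunit that favours lactate use, measured 10.59, 10.65 and 10.64 in the db/m arrays, 10.78, 10.56 and 10.61 in the db/db arrays and 10.72, 10.76 and 10.85 with TSF. The TSF arrays lay above db/m by 0.15 (adjusted p = 0.444). Pdha1, of the catalytic subunit of pyruvate dehydrogenase, which sends pyruvate to the citric acid cycle, measured 8.71, 8.79 and 8.44 in the db/m arrays, 8.77, 8.64 and 8.80 in the db/db arrays and 8.72, 8.87 and 8.86 with TSF, with overlap throughout.

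The Pfkfb enzymes make and remove a sugar phosphate signal that favours phosphofructokinase over fructose bisphosphatase. Pfkfb2, the heart form, measured 5.75, 5.92 and 5.50 in the db/m arrays, 5.96, 6.10 and 5.92 in the db/db arrays and 5.92, 5.91 and 5.92 with TSF. The db/db arrays lay above db/m by 0.27 (adjusted p = 0.303), with the highest db/m and lowest db/db arrays almost level. Pfkfb4 measured 4.58, 4.70 and 4.51 in the db/m arrays, 4.72, 4.75 and 4.77 in the db/db arrays and 4.75, 4.70 and 4.66 with TSF. Here db/db lay 0.15 above db/m without overlap (adjusted p = 0.464), and Pfkfb3 lay between 4.75 and 5.24 with overlapping groups.

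Among the gluconeogenic enzymes, G6pc and Pck1 had their highest levels in the treated mice. G6pc, the catalytic subunit that frees glucose at the end of the pathway, measured 11.42, 11.52 and 11.54 in the db/m arrays, 11.65, 11.46 and 11.74 in the db/db arrays and 11.87, 11.88 and 11.85 with TSF. All TSF arrays lay above all others, by 0.38 over db/m (SE 0.094, adjusted p = 0.0577) and by 0.25 over db/db (SE 0.094, adjusted p = 0.36), while db/db and db/m overlapped. Pck1 measured 11.20, 11.43 and 11.62 in the db/m arrays, 11.70, 11.56 and 11.48 in the db/db arrays and 11.89, 11.86 and 11.73 with TSF. Its TSF arrays too lay above all others, by 0.41 over db/m (SE 0.12, adjusted p = 0.0941) and by 0.24 over db/db (SE 0.12, adjusted p = 0.446).

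Slc37a4, which carries glucose phosphate to that phosphatase, measured 10.37, 10.54 and 10.49 in the db/m arrays, 10.61, 10.71 and 10.86 in the db/db arrays and 10.76, 10.83 and 10.77 with TSF. Both db/db groups lay above db/m, by 0.26 (adjusted p = 0.242) and 0.32 (adjusted p = 0.104) with TSF, and overlapped each other. With an intensity trend in limma's variance model, G6pc, Pck1 and Slc37a4 passed in db/db+TSF against db/m, with adjusted p-values of 0.0146, 0.043 and 0.0402. With single arrays left out their adjusted p-values reached 0.17, 0.245 and 0.286, each without db/db+TSF replicate 2.

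The other one-way enzymes of gluconeogenesis differed less from db/m with TSF. Fbp1, the fructose bisphosphatase of liver and kidney, measured 11.85, 11.90 and 11.96 in the db/m arrays, 12.01, 11.91 and 11.99 in the db/db arrays and 12.05, 11.97 and 12.02 with TSF. The TSF arrays lay just above db/m (0.11, adjusted p = 0.55). Pcx, pyruvate carboxylase, measured 10.50, 10.53 and 10.52 in the db/m arrays, 10.48, 10.61 and 10.78 in the db/db arrays and 10.63, 10.55 and 10.62 with TSF. Its TSF arrays were also just above db/m (0.09, adjusted p = 0.688). Pck2, the mitochondrial PEP carboxykinase, lay between 5.85 and 6.11, and the muscle-type Fbp2 between 5.94 and 6.70, both with overlap. For Fbp2 the difference of db/db from db/m was 0.31 (adjusted p = 0.355) and that of db/db+TSF from db/db -0.29 (adjusted p = 0.438). Without db/db replicate 3 these were larger, 0.435 (limma adjusted p = 0.229) and -0.423 (limma adjusted p = 0.317). Khk measured 10.32, 10.32 and 10.52 in the db/m arrays, 10.40, 10.53 and 10.46 in the db/db arrays and 10.44, 10.40 and 10.36 with TSF, with overlap in every comparison.

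The 7 glycolysis-only members had a larger median difference from db/m in db/db than the 7 gluconeogenesis-only members, 0.40 beside 0.13, a gap of 0.27. For db/db+TSF against db/m the medians were 0.18 and 0.11, a gap of 0.07, and between the db/db groups they were -0.02 and 0.04, a gap of -0.07. These gaps are descriptions with no test, and the comparisons share arrays. Array by array, the glycolysis-only median lay 0.31, 0.28 and 0.73 above the db/m mean in db/db replicates 1, 2 and 3, and 0.28, 0.09 and 0.23 above it with TSF. The gluconeogenesis-only median lay 0.15, 0.14 and 0.09 above it for db/db and 0.15, 0.06 and 0.12 with TSF. Subtracted within each array, the gap was 0.16, 0.14 and 0.64 for db/db and 0.13, 0.03 and 0.12 with TSF. Without db/db replicate 3 the medians in db/db against db/m were 0.32 and 0.12, a gap of 0.20, and the gap between the db/db groups was -0.05.

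**Figure D3:**
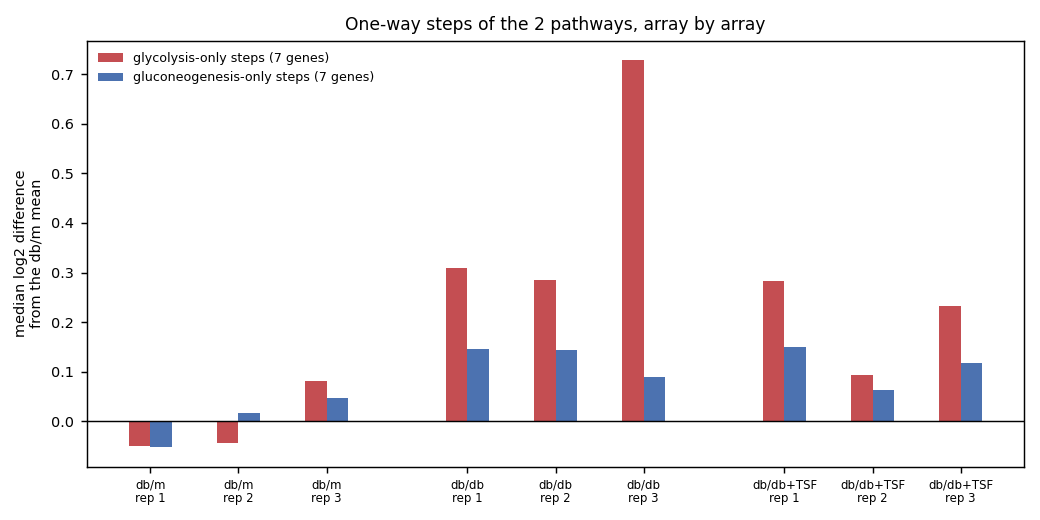
Median log2 difference from the db/m mean (y axis) of the 7 glycolysis-only and the 7 gluconeogenesis-only members in each of the 9 arrays (x axis). In db/db replicate 3 the glycolysis-only bar reaches 0.73 beside 0.09 for gluconeogenesis, and in every other array both bars are at or below 0.31.

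Counts over the members in db/db against db/m lay on the higher side. Groups did not overlap for 11 of 27 members, all higher, where 10.4% of all genes lay wholly above and 8.28% wholly below. Of these 11, 6 were glycolysis-only and 1 gluconeogenesis-only. With limma an unadjusted p under 0.05 was reached by 10 members, all higher, where 8.15% of all genes reached it on the higher and 5.79% on the lower side. Without db/db replicate 3, an alternative chosen after seeing the data, 0 members passed the threshold, 23 lay above 0, 7 reached an unadjusted p under 0.05 on the higher side (6.6% of all genes) and 12 lay wholly above (15.4% of all genes). Within db/db, replicate 3 was the highest array for 16 of 27 members, where it was for 33.6% of all genes.

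What TSF changed is asked by setting treated against saline-treated db/db mice. With limma 0 of 27 members passed, and 0.0% of all genes did. An unadjusted p under 0.05 was reached on the higher side by G6pc, where 4.98% of all genes reached it, and on the lower side by Pfkl, Pkm and Aldoc, where 6.74% did. Groups did not overlap for G6pc and Pck1, both higher (7.81% of all genes), and for Pkm, lower (12.3%). The median over members was -0.02, as it was over all genes, and 10 of 27 lay above 0, where 43.9% of all genes did. Without db/db replicate 3, 16 of 27 lay above 0, where 7742 of 17740 genes did. An unadjusted p under 0.05 was then reached by 1 member on each side, G6pc on the higher and Fbp2 on the lower. Among all genes 4.97% reached it on the higher side and 1134 of 17740 on the lower, so the counts of members reaching it are near the background. Pfkl, Pkm and Aldoc no longer reached it.

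With treated db/db mice set against the lean mice, Pklr was the 1 member of 27 that passed, on the higher side, where 1.22% of all genes did, and 0 passed on the lower side, where 1.92% did. Groups did not overlap for 11 members, all higher, where 9.76% of all genes lay wholly above and 12.4% wholly below. Of the 11, 5 were gluconeogenesis-only (Pck1, Pcx, G6pc, Fbp1 and Slc37a4) and 3 glycolysis-only (Hk1, Pfkm and Pklr), and the others were Pgk1, Eno2 and Ldhb. An unadjusted p under 0.05 was reached by 7 members, all higher (7.56% of all genes higher and 9.63% lower). The median over members was 0.11, beside -0.000183 over all genes.

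Around the pathway, a list of 70 further genes gave 62 with a probe set and 61 tested. In db/db against db/m 1 rose and 2 fell, where 0.592% and 0.462% of all genes did, and against the same db/m arrays 2 rose and 2 fell with TSF, where 1.22% and 1.92% did. Between the db/db groups 0 of the 61 passed with limma, and an unadjusted p under 0.05 was reached by 4 on the higher and 3 on the lower side, near the 4.98% and 6.74% of all genes. The median of the 61 in db/db against db/m was 0.05.

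Ldhd, the mitochondrial enzyme that oxidises D-lactate, fell. It measured 11.17, 11.08 and 11.23 in the db/m arrays, 10.26, 10.39 and 10.26 in the db/db arrays and 10.11, 9.81 and 9.99 with TSF. The 3 groups did not overlap. It was 1.81-fold lower in db/db (-0.86, SE 0.1, limma adjusted p = 0.003) and 2.28-fold lower with TSF (-1.19, SE 0.1, limma adjusted p = 0.000224) than in db/m. The further difference of -0.33 between the db/db groups did not pass (adjusted p = 0.284). Both calls against db/m held with any single array left out, with adjusted p-values up to 0.0199 and 0.00209.

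Of the kinases that switch off pyruvate dehydrogenase, Pdk1 rose and Pdk3 fell, and Pdk2 and Pdk4 did not pass in any comparison. Pdk2 differed from db/m by -0.07 (adjusted p = 0.795) in db/db and 0.12 (adjusted p = 0.582) with TSF, and Pdk4 by -0.64 (adjusted p = 0.612) and 0.63 (adjusted p = 0.574). Between the db/db groups Pdk4 was 1.26 higher with TSF (SE 0.497, limma adjusted p = 0.382). Its arrays spread widely, with an SD of 0.80 for db/m, 0.99 for db/db and 0.62 with TSF. Pdk1 measured 6.06, 6.18 and 5.81 in the db/m arrays, 6.92, 6.79 and 7.31 in the db/db arrays and 7.04, 6.92 and 6.97 with TSF. It rose by 0.99 (SE 0.14, adjusted p = 0.00794) in db/db and by 0.96 (adjusted p = 0.00557) with TSF, and both calls held with any single array left out, with adjusted p-values up to 0.0345 and 0.0239. Both were lost without moderation of the variances (0.129 and 0.0812).

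Pdk3 measured 8.81, 8.45 and 8.50 in the db/m arrays, between 7.88 and 8.08 in the db/db arrays and 8.08, 7.78 and 8.09 with TSF. All db/m arrays lay above all others. The difference from db/m was -0.60 (SE 0.12, adjusted p = 0.048) for db/db and -0.61 (adjusted p = 0.0267) with TSF. The first call was lost without any 1 of 8 arrays, all but db/db+TSF replicate 2, with adjusted p-values up to 0.151. It was also lost with no filter (0.0512), median scaling (0.0656), quantile normalization (0.051), no pseudocount (0.0545), no moderation (0.185), only the groups compared in the fit (0.0743) and the replicate block (0.0643). The other was lost without db/m replicate 1 (0.0846), db/db+TSF replicate 2 (0.099) or db/db+TSF replicate 3 (0.0617), and also with no moderation (0.125) or only the groups compared in the fit (0.052).

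Slc2a4, the insulin-responsive glucose transporter, measured 6.27, 6.26 and 6.55 in the db/m arrays, 6.82, 6.90 and 6.84 in the db/db arrays and 6.82, 6.77 and 7.02 with TSF. All arrays of the db/db groups lay above db/m. The difference passed with TSF (0.51, SE 0.11, adjusted p = 0.0302) and not in db/db (0.50, SE 0.11, adjusted p = 0.0564). The call was lost with any 1 array of db/db+TSF left out, or db/m replicate 1 or 2, with adjusted p-values up to 0.119, and with median scaling (0.0551), no moderation (0.111) or only the groups compared in the fit (0.066). In db/db against db/m Slc2a4 passed with a filter at the 50th percentile (0.05 as rounded), a pseudocount of 16 (0.048), an intensity trend (0.0495), array weights (0.0298) and without db/m replicate 3 (0.037). Both db/db groups thus lay near the threshold for this gene.

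**Figure D4:**
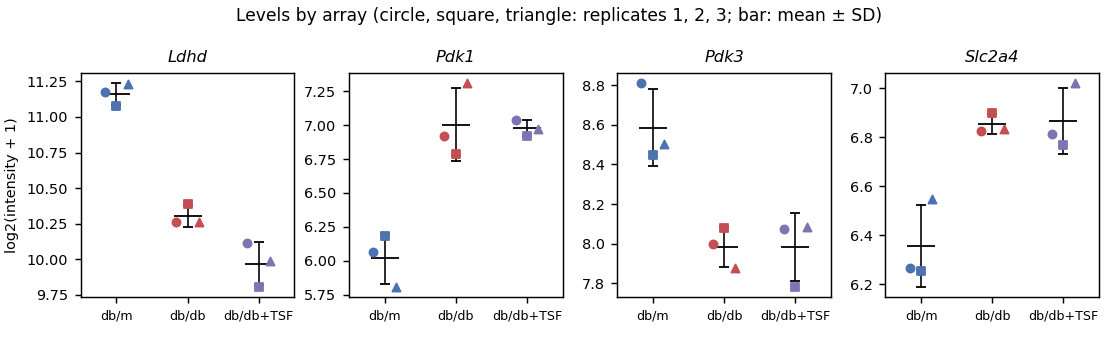
Level of Ldhd, Pdk1, Pdk3 and Slc2a4 as log2(intensity + 1) (y axes, each with its own range) in the 3 groups (x axis), with 1 point per array and the mean ± SD as bars. Pdk1 and Slc2a4 are higher and Pdk3 lower in both db/db groups, and the mean of Ldhd is 11.16 for db/m, 10.30 for db/db and 9.97 for db/db+TSF.

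No gene of the other lists passed in any comparison with the settings used here. With a pseudocount of 16 or an intensity trend, Got1 passed in db/db against db/m (0.0451 and 0.0488) and Slc2a5 in db/db+TSF against db/m (0.0458 and 0.0328). By smallest p in db/db against db/m, the leading genes for fructose and aldose handling were Slc2a5, a fructose transporter (0.32, adjusted p = 0.202), and Akr1b10 (0.18, adjusted p = 0.422). For the pentose phosphate pathway they were Taldo1, transaldolase (-0.36, adjusted p = 0.284), and Rpia (0.24, adjusted p = 0.373). For the malate and aspartate steps they were the aspartate transaminases Got1 (0.31, adjusted p = 0.125) and Got2 (0.10, adjusted p = 0.636). For the regulators they were Hif1a, the oxygen-regulated subunit of a hypoxia factor (0.35, adjusted p = 0.156), and Creb1, which binds cAMP response elements (0.34, adjusted p = 0.287).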

How the data were processed

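The authors deposited a linear intensity for each probe set and array. Affymetrix Expression Console and the Transcriptome Analysis Console are named in the submitters' processing notes; how background, normalization and probe summary were set is not given in the sources used here. Of 41345 probe sets, 23521 carried 1 gene symbol in the platform annotation, 1814 several and 16010 none. The brightest single-symbol probe set stood for its gene. Genes with a mean log2(intensity + 1) below 2.65, the 30th percentile over probe sets, were left out.

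With limma 3.58.1 in R 4.3.3, group means were estimated from all 9 arrays with moderated variances, tested on simulated data. P-values measure the spread between these arrays, whose number limits the precision. Named genes were the members and, of each further pathway list, genes past the threshold or the 2 of smallest p. Values by array are given for members past the threshold, those whose groups did not overlap and the smallest p of each role. Of 86 cell type markers 78 matched a probe set. The members and lists were chosen with earlier results of these data known. Alternatives covered the probe set, filter, scaling, pseudocount, variance model, weights, a replicate block, fitting only the groups compared, and single arrays left out.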

Additional observations from a re-analysis of the deposited data

How the results depend on the processing

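In db/db against db/m, 187 genes passed in all, 26 without moderation of variances and 72 to 194 with single arrays left out: 86, 122 and 109 without db/m replicate 1, 2 or 3, 72, 121 and 82 when saline replicate 1, 2 or 3 was dropped, and 116 when TSF replicate 3 was. In db/db+TSF against db/m, 556 passed, 73 without moderation and 213 to 563 with single arrays left out: 220 and 370 without db/m replicate 1 or 2, and 224 and 213 without db/db+TSF replicate 2 or 3. The count of members past the threshold in db/db against db/m was 0 without moderation, 0 with the replicate block, and 0 to 1 with single arrays left out. In db/db+TSF against db/m it was 0 without moderation, 2 with a filter at the 50th percentile, 3 with a pseudocount of 16, 4 with an intensity trend, 3 with array weights, and 0 to 2 with single arrays left out. The cause of these shifts was not tested. In db/db+TSF against db/db every alternative run gave 0 genes. The replicate numbers share no source in the labels, and same-numbered arrays deviated from their group means with correlations from -0.08 to 0.15. With the replicate block 137 and 434 genes passed against db/m, and Pklr had a limma adjusted p of 0.0628 in db/db. The gap between glycolytic and gluconeogenic medians, with single arrays left out, ran from 0.20 to 0.35 in db/db against db/m, from -0.17 to -0.00598 in db/db+TSF against db/db (0.0142 with quantile normalization, where its sign turned) and from 0.04 to 0.19 in db/db+TSF against db/m. No called difference of a named gene reversed in any alternative. Detection calls were not used, so how far a dim probe set stands above background is not known.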
